A study of Homo sapiens with 3 samples.

Results

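The genes described here are the SNAREs, exocyst subunits, sorting nexins and VPS (vacuolar protein sorting) genes of EBC-1 cells, a human lung squamous carcinoma line, measured by CAGE (cap analysis of gene expression), in which short tags are counted at the capped 5′ ends of RNA. They were chosen by symbol alone, as every gene named STX, VAMP, VPS, SNX, EXOC or SNAP with a number, VTI1, BET1 or GOSR with its suffix, and YKT6. The rule took 100 of the 13479 entries in the table, under 99 symbols, and used no measured value. All 3 libraries came from cells electroporated with 600 pmol of siRNA in serum-free medium: a negative control siRNA, RAB11A siRNA 1 or RAB11A siRNA 2, with 1 library for each. The cells had been kept in RPMI1640 medium with fetal bovine serum, and the labels give 72 h after plating in their account of the transfection. No separate cultures are labelled, so differences between libraries have no replicate check and hold only for these 3 libraries.

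RAB11A is a small GTPase of recycling endosomes, the compartment from which internalised receptors return to the cell surface. The genes described here encode the machinery that works beside it: SNAREs (syntaxins, VAMPs, SNAPs and their relatives) fuse vesicles with target membranes, and tethers such as the exocyst, HOPS, CORVET and GARP hold the vesicle in place before fusion. Sorting nexins and retromer collect cargo for return from endosomes, whereas the ESCRT subunits and VPS4 ATPases sort cargo into the inner vesicles of endosomes on the way to the lysosome.

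Both siRNAs are shown because their seeds are used further on. The capitals mark the bases that face the seed of the guide strand, which is its positions 2 to 8 counted from its 5′ end.
RAB11A siRNA 1, sense strand: gcauccagguuGAUGGAAa
RAB11A siRNA 2, sense strand: agcaagagcuuUUGCAGAa
The sequence of siRNA 1 was found in 6 and that of siRNA 2 in 5 of the 9 annotated RAB11A transcripts. RAB11A itself stood at 135 CPM (counts of tags scaled to a common library size) in the control library, 7.48 CPM with siRNA 1 and 22.7 CPM with siRNA 2, which is 5.53% and 16.8% of control. The targeted RNA was thus low in both libraries labelled as its knockdowns, and lower with siRNA 1 than with siRNA 2.

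Promoters are shown for 4 genes on which the results below turn: SNX24, VPS29, VPS11 and VAMP7. Among members with a mean of at least 5 CPM, SNX24 was the only one at least 1.5-fold lower than control with either siRNA, VPS29 had the highest ratio to control with siRNA 1 and VPS11 the lowest with siRNA 2. VAMP7 was seen almost only in the siRNA 2 library. Each is the window of 300 bases around the RefSeq start on GRCh38.p14, 5′ to 3′ on the gene's strand, and capitals mark matches to the motifs described at the end of the results.
SNX24 (chr5:122845363-122845662, plus strand): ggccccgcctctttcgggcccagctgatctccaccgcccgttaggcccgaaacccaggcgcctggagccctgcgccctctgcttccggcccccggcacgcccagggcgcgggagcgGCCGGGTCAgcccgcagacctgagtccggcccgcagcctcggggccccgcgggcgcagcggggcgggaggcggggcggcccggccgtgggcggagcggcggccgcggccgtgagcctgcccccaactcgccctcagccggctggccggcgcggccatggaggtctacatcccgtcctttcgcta
VPS29 (chr12:110502062-110502361, minus strand): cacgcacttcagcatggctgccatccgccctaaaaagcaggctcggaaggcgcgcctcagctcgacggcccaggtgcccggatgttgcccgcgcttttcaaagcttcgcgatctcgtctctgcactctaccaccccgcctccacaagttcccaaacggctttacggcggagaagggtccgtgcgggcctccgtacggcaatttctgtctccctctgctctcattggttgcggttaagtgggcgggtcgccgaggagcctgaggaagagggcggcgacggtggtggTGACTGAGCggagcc
VPS11 (chr11:119067568-119067867, plus strand): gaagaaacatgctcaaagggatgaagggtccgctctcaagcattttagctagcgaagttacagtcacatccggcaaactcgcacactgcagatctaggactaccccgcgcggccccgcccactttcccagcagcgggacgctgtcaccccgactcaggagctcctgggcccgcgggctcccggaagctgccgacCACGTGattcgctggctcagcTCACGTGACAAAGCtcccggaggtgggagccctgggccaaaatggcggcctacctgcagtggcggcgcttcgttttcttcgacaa
VAMP7 (chrX:155881095-155881394, plus strand): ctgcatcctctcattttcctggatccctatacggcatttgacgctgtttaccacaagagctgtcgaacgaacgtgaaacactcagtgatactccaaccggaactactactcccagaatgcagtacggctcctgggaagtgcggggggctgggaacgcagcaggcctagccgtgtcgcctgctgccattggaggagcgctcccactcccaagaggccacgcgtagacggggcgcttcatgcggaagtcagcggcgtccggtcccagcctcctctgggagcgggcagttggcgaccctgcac

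The table gave whole tags from about 24999950 tags in every library, so 1 tag is worth 0.04 CPM and 3 tags, the limit that a count of 0 allows, are 0.12 CPM. Added up over genes, the tags came to 25174787, 25204585 and 25137457, more than that total, and entries with identical values enter that sum more than once; why it exceeds the total was not tested. Counting intervals (exact, 95%) are given with the ratios and cover counting error only. Of the epithelial markers checked, KRT8 stood at 328, 358 and 329 CPM and KRT18 at 386, 475 and 394 CPM (control first, then both siRNAs in order). KRT19 stood higher with each siRNA than in control, at 109, 175 and 152 CPM, EPCAM stood at 4.20, 4.28 and 3.72 CPM, and CDH1 and CLDN4 were not among the entries analysed here. Likewise, TP63, SOX2, KRT5, KRT6A, KRT14, DSG3 and DSC3 of the squamous list had no entry among those analysed here, and PERP, SFN and S100A2 were. Of 9 genes listed for other cell types, 2 had entries: COL1A1 (1.08, 1.04 and 1.12 CPM) and CD68, a lysosomal protein used as a macrophage marker (45.2, 21.1 and 31.4 CPM). The samples are of a cell line, so these genes served only to check its label. The same order is kept for all values that follow. Both comparisons with control share the same control library.

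Of the 100 entries, 91 had a mean of at least 5 CPM and were compared, among 10788 genes in all. In the control library the median over these 91 entries was 49.2 CPM, against 31.6 CPM over all genes compared. CAGE counts 1 tag per capped end, so levels of different genes are compared here without scaling by length. The highest member in control was SNX3, a PX-domain sorting nexin that works with retromer, at 225, 231 and 240 CPM. VPS26A (214, 172 and 191 CPM), YKT6 (210, 197 and 196 CPM), SNX15 (208, 209 and 210 CPM), VPS4A (204, 158 and 175 CPM) and SNX6 (201, 215 and 196 CPM) followed, and 15 members exceeded 100 CPM. The 9 entries below the minimum had means from 0.72 CPM for SNAP91 to 4.96 CPM for VAMP1, and the others were EXOC8, SNX16, SNX29, STX11, STX1A, VPS37D and VPS9D1. Among the compared members other than VAMP7, control levels thus ran from 5.40 CPM (SNX33) to 225 CPM.

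**Figure D1:**
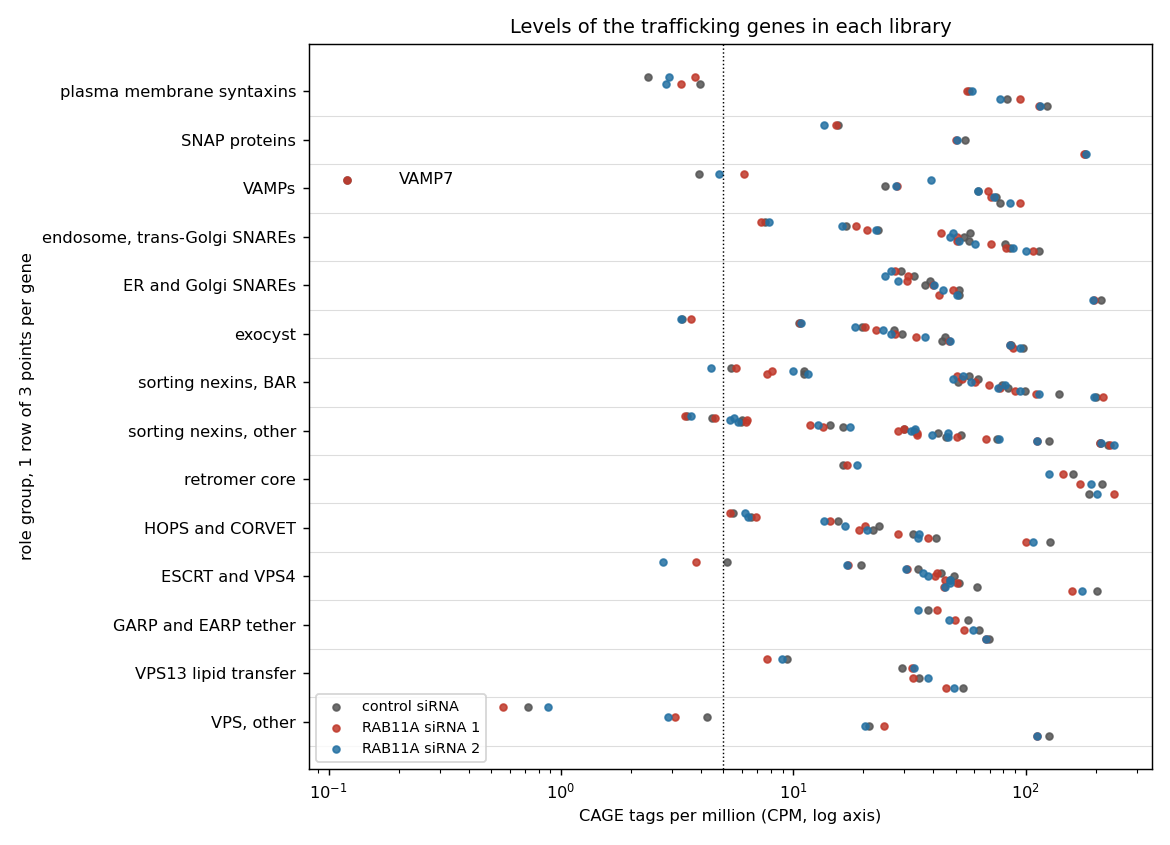
CPM in each of the 3 libraries for every member by role group, on a log axis, with 1 row of 3 points per gene and a dotted line at the minimum mean of 5 CPM; the control and siRNA 1 points of VAMP7 overlie each other. The libraries lie close together for nearly every gene, and VAMP7 is the exception, with 0.12 CPM in control and with siRNA 1 and 39.0 CPM with siRNA 2.

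With siRNA 1, the members on the whole stood slightly below control. Log2 ratios and fold limits use (CPM + 1) throughout, a scale that understates differences of low genes. Ratios given with a counting interval are of CPM alone. The median over the 91 members was -0.10, against -0.03 over all 10788 genes, and 67 of 91 members (73.6%) were below 0, against 54.6% of all genes. Their interquartile range was 0.209, against 0.323 over all genes. Among genes with means of 20 to 250 CPM it was 0.181 for the 72 members and 0.304 for all. With rescaled libraries (TMM factors) the median of all genes moves up by 0.0253, and that of the members is then -0.07. Of the members, 1 (SNX24) was at least 1.5-fold lower, where 2.56% of all genes were, and 0 were at least 1.5-fold higher, where 2.81% were. At a smaller difference, at least 0.32 on the log2 scale, 10 members were lower (11%, against 11.6% of all genes) and 1, VPS29, was higher (1.1%, against 10.2%). The 10 include both STX16 and its readthrough entry STX16-NPEPL1, which carry identical values. None of the 91 was 2-fold apart, where 0.89% of all genes were. An exact two-sided binomial test on tags with Benjamini-Hochberg adjustment compares these libraries and not the conditions. It called 40 members lower (44%, against 29.1% of all genes) and 8 higher (8.79%, against 23.3%). Such a test calls smaller differences where counts are higher. The median counting error of the log2 ratio was 0.0589 for members, against 0.0711 for all genes, and no share among genes of like level was taken. The same limit holds for its counts in the other comparisons. STX16 and its readthrough entry both count among its lower calls in each comparison.

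With siRNA 2, the median over members was -0.09, against -0.04 over all genes, and 64 of 91 members (70.3%) were below 0, against 58.2%. The TMM factors move the median of all genes up by 0.0435 in this comparison and leave that of the members at -0.05. The interquartile range was 0.202, against 0.299, and between 20 and 250 CPM the gap was smaller, at 0.230 against 0.275. Only VAMP7 was at least 1.5-fold higher (1 of 91, against 1.24% of all genes), and it was also the only member 2-fold apart (against 0.463%). At least 1.5-fold lower were 0 members, against 1.85% of all genes. At 0.32 or more on the log2 scale, 9 members were lower (9.89%, against 11.2%) and 1, again VAMP7, was higher (against 6%). The binomial test called 29 members lower (31.9%, against 29.9%) and 7 higher (7.69%, against 18.4%). Because VAMP7 passed the minimum level only through the siRNA 2 library, it had to differ there. Without it and without repeated entries, the median over 88 members was -0.09.

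Between the siRNAs, the members' median was -0.01 for siRNA 1 against siRNA 2, against 0.02 over all genes. At 0.32 or more, SNX10, SNX27, SNX30 and VAMP7 were lower with siRNA 1 (4 of 91, against 4% of all genes) and 0 members were higher (against 6.34%). VAMP7 had to differ here too, as it passed the minimum level only through the siRNA 2 library. On the (CPM + 1) scale, VAMP7 alone was 1.5-fold lower (1 of 91, against 0.695%) and 2-fold apart (against 0.352%). SNX30, at a log2 ratio of -0.53 on that scale, did not pass, though its ratio of CPM alone was 0.666. In the other direction, 0 members were 1.5-fold higher (against 0.899%). The binomial test called 16 members lower with siRNA 1 (17.6%, against 15.4%) and 14 higher (15.4%, against 21.4%). Past 0.32, the members' shares below control were thus close to those of all genes, and their shares above control were smaller.

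**Figure D2:**
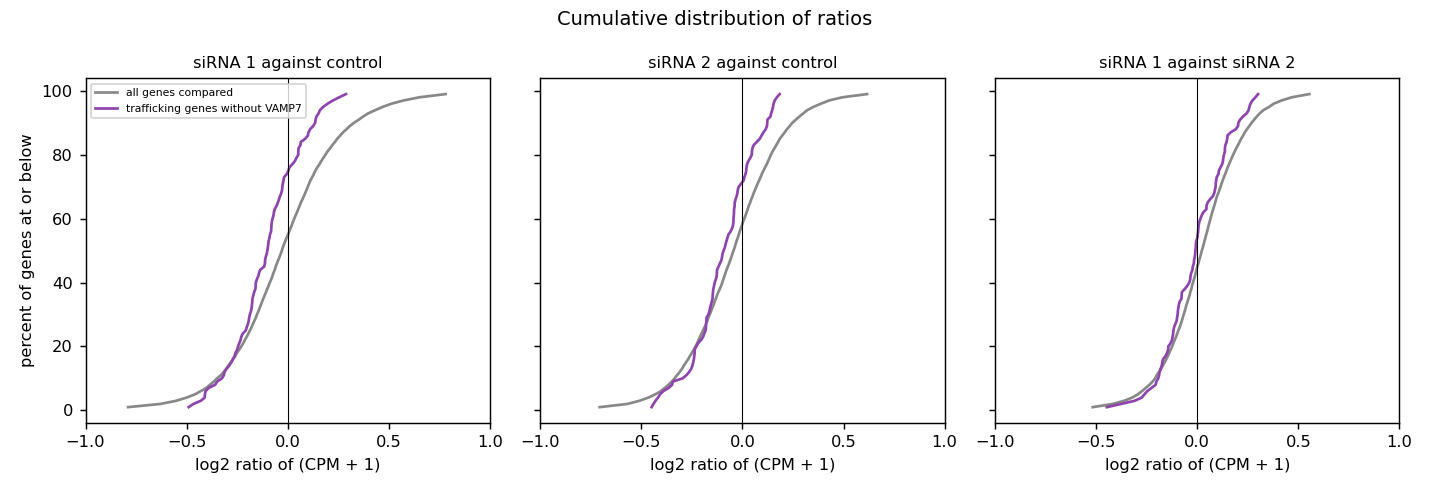
Cumulative percent of genes at or below each log2 ratio of (CPM + 1), for the compared members without VAMP7 (purple) and for all genes compared (grey), in 1 panel per comparison. The members are shifted to slightly lower values than all genes against control, with medians of -0.10 and -0.09, and their curves are steeper.

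**Figure D3:**
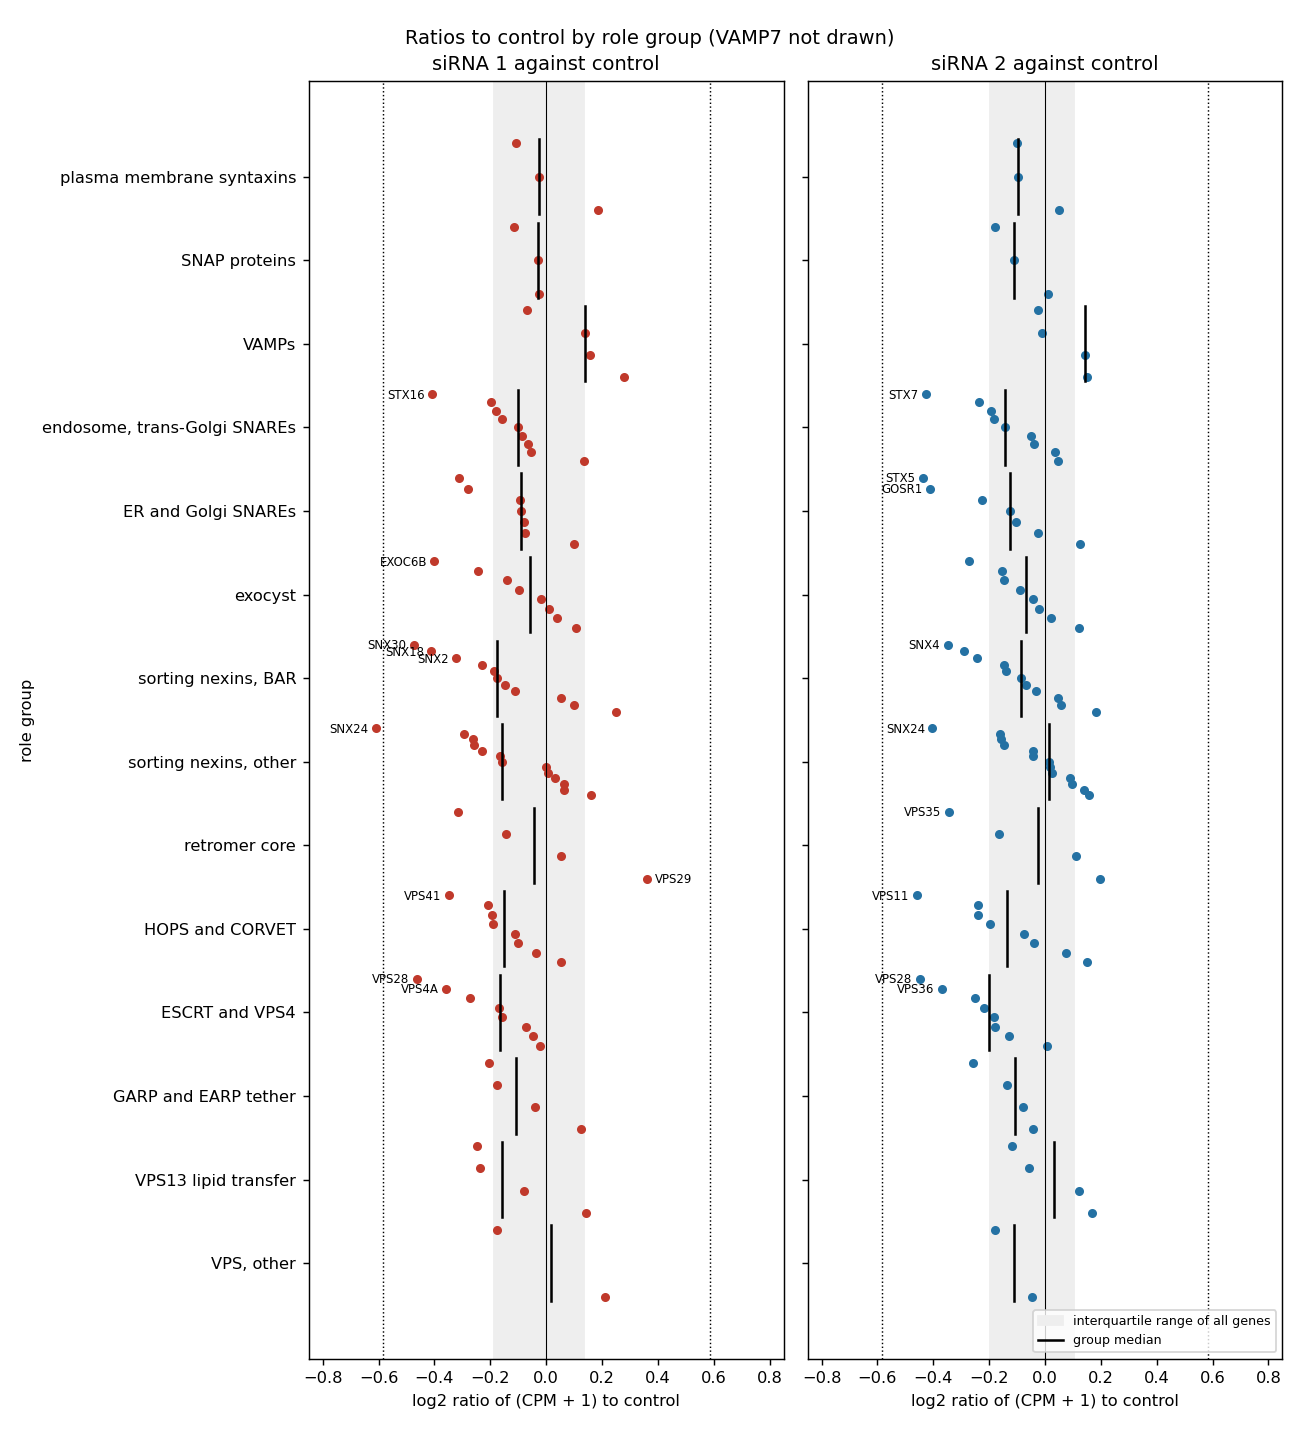
The log2 ratio of (CPM + 1) to control for each measured member by role group, 1 panel per siRNA, with VAMP7 not drawn; black bars are group medians (that of the VAMPs includes VAMP7), grey bands the interquartile range of all genes, and dotted lines the 1.5-fold limits. Genes past 0.32 are named. SNX24 is the lowest point with siRNA 1 and VPS29 the highest.

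Among the SNAREs of the plasma membrane, levels differed little between libraries, with STX3 the widest of the compared genes. SNAP23, the Qbc-SNARE of surface fusion outside neurons, stood at 181, 177 and 182 CPM. STX4, its partner at the basolateral and general cell surface, stood at 123, 114 and 115 CPM. STX3, the apical syntaxin, stood at 82.8, 94.4 and 77.3 CPM, with a ratio of 1.14 (1.07 to 1.21) to control for siRNA 1 and 0.934 (0.877 to 0.994) for siRNA 2, so the library with siRNA 1 was the highest of the 3. STX2 stood at 56.9, 55.8 and 58.9 CPM, and SNAP29, which serves several endosomal and autophagic fusions, at 54.7, 50.4 and 50.6 CPM. SNAP47 was lower in level, at 15.5, 15.2 and 13.6 CPM. STX1A and STX11 had at most 3.96 and 3.76 CPM in any library. Summed over STX2, STX3 and STX4, the level was 263, 264 and 251 CPM.

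The VAMPs are the vesicle-side SNAREs. VAMP8, of late endosomes and secretory granules, stood at 77.8, 94.6 and 86.0 CPM, a ratio of 1.22 (1.14 to 1.29) with siRNA 1 and 1.1 (1.04 to 1.18) with siRNA 2. VAMP3, a SNARE of recycling endosomes, stood at 62.4, 68.8 and 62 CPM, and VAMP2 at 74.2, 70.7 and 73.0 CPM under values identical to those of another entry. VAMP4, of the trans-Golgi network, stood at 24.9, 27.9 and 27.8 CPM. In sum without VAMP7, the VAMPs stood at 239, 262 and 249 CPM, a ratio of 1.09 (1.06 to 1.13) with siRNA 1 and 1.04 (1.00 to 1.08) with siRNA 2. The median log2 ratio of the VAMPs to control was 0.14 with each siRNA; with a minimum mean of 20 CPM, which leaves out VAMP7, it was 0.15 with siRNA 1 and 0.07 with siRNA 2.

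VAMP7, a longin-domain SNARE of late endosomes and lysosomes, was the member with by far the widest range. It had 3 tags in the control library, 3 tags with siRNA 1 and 974 tags with siRNA 2, which is 0.12, 0.12 and 39.0 CPM. The ratio of siRNA 2 to control was 325, with a counting interval of 111 to 1577, and the 3 tags in control set its width. VAMP7 lies at chrX:155111008-155173433 (GRCh37, plus strand), in the pseudoautosomal region that X and Y share. Of 19 pseudoautosomal genes in a fixed list, 4 had an entry, VAMP7 included. DHRSX and ZBED1, which overlap and carry identical values, stood at 0, 21.4 and 0 CPM, and CD99, under an identifier of the Y copy, stood at 0.68, 0.96 and 0.56 CPM. DHRSX and ZBED1 were thus seen with siRNA 1 alone, and VAMP7 almost only with siRNA 2.

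In the GRCh37 sequence used here the Y copy, chrY:59214014-59276439, is masked at all 62426 of its bases. The RefSeq windows for the X and Y copies of the VAMP7 promoter shown above differ at 0 of 300 bases. Whether the authors' genome held both copies and how tags with equal matches were counted is unknown here, and their part in the VAMP7 values was not tested.

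**Figure D4:**
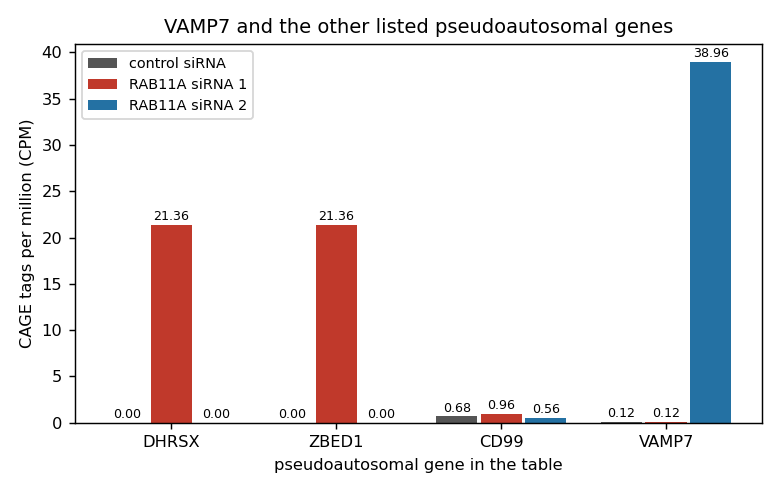
CPM of the 4 pseudoautosomal genes with an entry, in the control, siRNA 1 and siRNA 2 libraries. VAMP7 is high with siRNA 2 alone (39.0 CPM), and DHRSX and ZBED1 with siRNA 1 alone (21.4 CPM).

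The syntaxins of endosomes and the trans-Golgi network tended to stand below control, as the members did on the whole. STX16, which receives vesicles from endosomes at the trans-Golgi network, stood at 57.4, 43.0 and 48.6 CPM, a ratio of 0.749 (0.691 to 0.811) with siRNA 1 and 0.846 (0.783 to 0.914) with siRNA 2. Its values are identical to those of the STX16-NPEPL1 readthrough entry, so the 2 entries are 1 measurement. STX7, the syntaxin of late endosome fusion, stood at 81.4, 70.9 and 60.4 CPM, a ratio of 0.871 (0.817 to 0.929) and 0.741 (0.693 to 0.793). Its usual partners STX8 (114, 108 and 101 CPM) and VTI1B (57.2, 50.4 and 51.7 CPM) differed less, with log2 ratios of -0.09 and -0.18 for STX8 and -0.18 and -0.14 for VTI1B. STX6 stood at 54.4, 50.6 and 47.4 CPM and VTI1A at 23.2, 20.7 and 22.6 CPM. STX10 (85.8, 82.0 and 88.0 CPM), STX12, a syntaxin of recycling endosomes (16.8, 18.6 and 16.2 CPM), and STX17 of autophagosomes (7.56, 7.24 and 7.84 CPM) lay within 0.14 of control on the log2 scale. With siRNA 1, 8 of the 9 entries were below control, and with siRNA 2, 7 were. Of all compared members 73.6% and 70.3% were below 0, and of all genes 54.6% and 58.2%.

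Among the SNAREs of the early secretory pathway, STX5, the Golgi syntaxin, stood at 38.6, 30.9 and 28.2 CPM, a ratio of 0.801 (0.728 to 0.881) and 0.731 (0.663 to 0.807). GOSR1, which pairs with STX5 inside the Golgi stack, stood at 33.2, 31.1 and 24.7 CPM, a ratio of 0.937 (0.849 to 1.03) with siRNA 1 and 0.745 (0.670 to 0.827) with siRNA 2. For GOSR1 the difference from control was thus larger than counting error with siRNA 2 and not with siRNA 1. BET1L stood lower with siRNA 1 alone, at 51.8, 42.4 and 50.8 CPM, whereas its relative BET1 stood at 37.0, 39.8 and 40.4 CPM. GOSR2, listed under 2 identifiers with the same values, stood at 29.0, 27.3 and 26.4 CPM, STX18 of the endoplasmic reticulum at 51.6, 48.9 and 44 CPM, and YKT6, the prenylated Golgi SNARE, at 210, 197 and 196 CPM.

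The exocyst tethers vesicles at the plasma membrane, and its EXOC6 subunit is a known effector of RAB11. EXOC6 stood at 10.6, 10.7 and 10.8 CPM, with ratios of 1.01 (0.847 to 1.20) and 1.02 (0.854 to 1.21) to control. Its paralogue EXOC6B stood at 44.8, 33.7 and 36.9 CPM, a ratio of 0.752 (0.687 to 0.823) with siRNA 1 and 0.823 (0.754 to 0.899) with siRNA 2. Thus EXOC6B was lower than control in each knockdown library beyond counting error, while EXOC6 was at control level within the width of its interval. EXOC7 (86.8, 85.7 and 85.4 CPM), EXOC5 (97.5, 88.4 and 94.6 CPM), EXOC2 (43.5, 46.9 and 47.4 CPM), EXOC4 (29.3, 27.4 and 26.4 CPM), EXOC3 (27.2, 22.8 and 24.3 CPM) and EXOC1 (19.7, 20.2 and 18.4 CPM) differed from control by at most 0.25 on the log2 scale. The sum over the 8 compared subunits was 359, 336 and 344 CPM, a ratio of 0.934 (0.907 to 0.963) and 0.958 (0.930 to 0.987).

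Retromer is the coat that returns cargo from endosomes to the Golgi and the surface, and its 3 core subunits did not stand in the same order in the 3 libraries. VPS29, the small metallophosphatase-fold subunit, stood at 187, 240 and 202 CPM, a ratio of 1.29 (1.24 to 1.34) with siRNA 1 and 1.08 (1.04 to 1.13) with siRNA 2. VPS35, the scaffold, stood at 160, 145 and 126 CPM, a ratio of 0.905 (0.865 to 0.947) and 0.786 (0.750 to 0.824). VPS26A, the arrestin-like subunit, stood at 214, 172 and 191 CPM, a ratio of 0.803 (0.772 to 0.837) and 0.891 (0.857 to 0.927), and its paralogue VPS26B at 16.4, 17.0 and 18.9 CPM. VPS29 was thus the compared member furthest above control with siRNA 1 and stood higher there than with siRNA 2, while VPS35 was lowest with siRNA 2. Of the 11 annotated starts of VPS35, 3 have a near copy elsewhere in the genome (first 50 bases, at most 2 mismatches), and the part of these copies in its values was not tested. Summed over the core, the level was 577, 574 and 537 CPM.

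**Figure D5:**
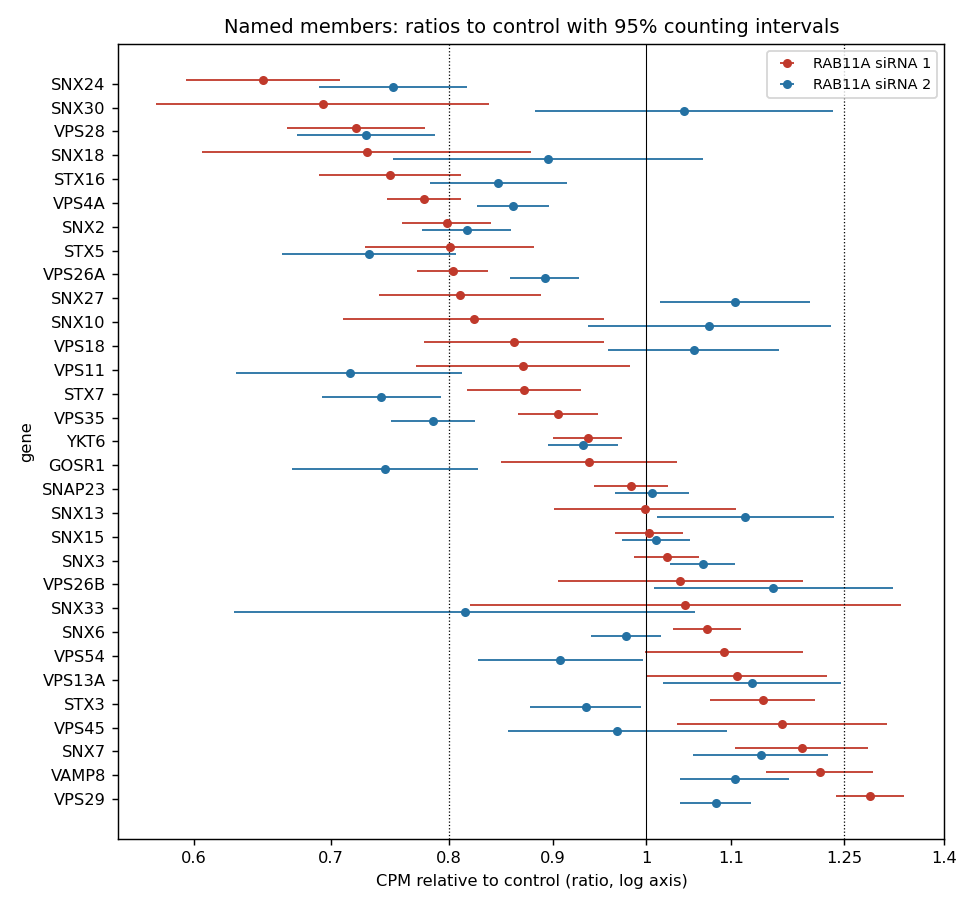
Ratios of CPM to control with exact 95% counting intervals for the named members, for siRNA 1 and siRNA 2, on a log axis. The intervals of SNX24, VPS28, STX5, VPS4A, VPS26A, SNX2, STX16, STX7, VPS35, VPS11 and YKT6 lie below 1 for both siRNAs. Those of VPS29, VAMP8, SNX7 and VPS13A lie above 1 for both. The intervals hold no spread between cultures, and dotted lines mark the smaller fold limit.

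Of the sorting nexins that carry a BAR domain, which senses or bends membranes, SNX2 stood at 139, 111 and 114 CPM, a ratio of 0.798 (0.759 to 0.839) and 0.816 (0.776 to 0.858). Its partner SNX1 (79.0, 69.3 and 81.6 CPM) was lower with siRNA 1 alone, at a log2 ratio of -0.19. SNX5 and SNX6, which pair with SNX1 or SNX2, stood at 57.1, 50.5 and 53.8 CPM and at 201, 215 and 196 CPM. SNX4, of the recycling route from endosomes, stood at 62.5, 53.2 and 48.9 CPM, a ratio of 0.850 (0.790 to 0.915) and 0.782 (0.725 to 0.843). Its known partners differed from it and from each other: SNX7 stood at 50.9, 60.7 and 57.9 CPM, a ratio of 1.19 (1.11 to 1.28) and 1.14 (1.05 to 1.23), and SNX30 at 11.1, 7.72 and 11.6 CPM, a ratio of 0.694 (0.575 to 0.837) and 1.04 (0.882 to 1.23). For SNX30, siRNA 1 was lower than siRNA 2 as well, at a ratio of 0.666 (0.552 to 0.801). SNX18, an SH3-domain member, stood at 11.1, 8.08 and 9.92 CPM, its relatives SNX9 and SNX33 at 99.6, 89.8 and 94.9 CPM and at 5.40, 5.64 and 4.40 CPM, and SNX8 at 83.8, 77.4 and 76.0 CPM.

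Among the other sorting nexins, SNX24, a small protein with little beyond its phosphoinositide-binding PX domain, had the lowest ratio of all members with siRNA 1. It stood at 52.5, 34.0 and 39.4 CPM, a ratio of 0.649 (0.594 to 0.708) with siRNA 1 and 0.752 (0.691 to 0.817) with siRNA 2, and both knockdown libraries lay below control. On the log2 scale its ratio with siRNA 1 was -0.61, close to the 1.5-fold limit (0.58 in size), and with TMM factors or a pseudocount of 5 CPM (-0.56) it no longer passed. SNX24 lies at chr5:122179134-122365049 (GRCh37, plus strand). SNX27, the PDZ-domain adaptor that brings cargo to retromer, stood at 41.9, 34.0 and 46.3 CPM, identical to a second entry, with a ratio of 0.733 (0.670 to 0.802) for siRNA 1 against siRNA 2. SNX10, of late endosomes and osteoclast acid secretion, stood at 16.3, 13.4 and 17.5 CPM. The control library lay between the siRNA libraries for SNX10 and SNX27.

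SNX17 (126, 112 and 112 CPM), which retrieves integrins and lipoprotein receptors, and SNX12 (75.5, 67.6 and 76.6 CPM) were high in level, as were SNX3 and SNX15 above. SNX13 (29.8, 29.8 and 33.4 CPM), SNX14 (45.3, 50.8 and 46.1 CPM), SNX19 (33.2, 28.2 and 32.2 CPM) and SNX25 (5.96, 6.28 and 5.76 CPM), which share a PXA domain, had ratios to control from -0.23 to 0.16 on the log2 scale. SNX21 stood at 14.4, 11.8 and 12.7 CPM and SNX11 at 6, 6.32 and 5.32 CPM. Of the 13 compared members of this group, 8 were below control with siRNA 1 and 6 with siRNA 2, where 54.6% and 58.2% of all genes were.

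HOPS and CORVET, tethers of endosomes and lysosomes, share VPS11, VPS16, VPS18 and VPS33A, to which HOPS adds VPS39 and VPS41. VPS41 stood at 128, 100 and 108 CPM, a ratio of 0.783 (0.743 to 0.825) and 0.845 (0.803 to 0.890). VPS11 stood at 23.3, 20.3 and 16.7 CPM, a ratio of 0.870 (0.771 to 0.981) and 0.715 (0.629 to 0.812), the lowest log2 ratio with siRNA 2 among the 91 compared members (-0.46). VPS18, a RING protein beside it in the core, stood instead at 32.8, 28.3 and 34.6 CPM, lower with siRNA 1 alone. VPS33A (41.0, 38.2 and 34.6 CPM, identical to another entry), VPS39 (15.6, 14.4 and 13.5 CPM), VPS8 of CORVET (22.0, 19.2 and 20.8 CPM) and VPS16 (5.48, 5.32 and 6.20 CPM) had smaller differences. So did VPS33B (6.60, 6.88 and 6.40 CPM), which is counted in this group though not listed above as a subunit of either complex. The group's sum was 275, 233 and 241 CPM, a ratio of 0.847 (0.818 to 0.877) and 0.877 (0.847 to 0.908), of which VPS41 is the largest term.

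The ESCRT subunits with VPS names and the VPS4 ATPases had the lowest summed ratio to control of the role groups with each siRNA. Their sum was 510, 429 and 436 CPM, a ratio of 0.840 (0.819 to 0.862) with siRNA 1 and 0.854 (0.832 to 0.876) with siRNA 2, and VPS4A is its largest term. Below control were 8 of 8 compared genes with siRNA 1 and 7 of 8 with siRNA 2, where 54.6% and 58.2% of all genes were. By median log2 ratio with siRNA 1 (-0.16) the group was not lowest, as the BAR sorting nexins were at -0.18. With siRNA 2 its median was -0.20. The 23 compared entries of other ESCRT genes had a median of -0.13 with each siRNA. By summed ratio the comparison continues among the role groups. HOPS and CORVET, the role group with the next lowest summed ratio, had overlapping intervals. VPS28 of ESCRT-I stood at 61.6, 44.4 and 44.9 CPM, a ratio of 0.720 (0.666 to 0.779) and 0.729 (0.674 to 0.788), and the interval of siRNA 1 against siRNA 2 included 1 (0.988, 0.909 to 1.07). VPS4A, the ATPase that takes ESCRT-III filaments apart, stood at 204, 158 and 175 CPM, a ratio of 0.778 (0.746 to 0.811) and 0.860 (0.826 to 0.895), and its paralogue VPS4B at 43.1, 41.6 and 36.1 CPM. VPS36 of ESCRT-II stood at 49.2, 40.5 and 37.8 CPM, whereas VPS25 of the same complex stood at 47.2, 44.9 and 47.4 CPM. The VPS37 subunits stood at 34.6, 30.9 and 30.4 CPM (VPS37A), 51.4, 50.7 and 47.0 CPM (VPS37B), 19.5, 17.2 and 17.0 CPM (VPS37C) and 5.20, 3.8 and 2.76 CPM (VPS37D, below the minimum mean).

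The GARP and EARP tethers of the trans-Golgi network and recycling endosomes share VPS51, VPS52 and VPS53. These stood at 62.8, 54.4 and 59.4 CPM, at 56.2, 49.7 and 46.8 CPM and at 69.2, 67.2 and 67.2 CPM. VPS54, the subunit that defines GARP, stood at 38.0, 41.5 and 34.5 CPM. Their summed ratio to control was 0.940 (0.906 to 0.976) with siRNA 1 and 0.919 (0.885 to 0.954) with siRNA 2. Of the VPS13 proteins, which carry lipids between membranes, VPS13A stood at 29.4, 32.5 and 33.1 CPM, VPS13B at 34.7, 32.8 and 37.8 CPM, VPS13C at 53.5, 45.2 and 49.2 CPM and VPS13D at 9.36, 7.72 and 8.96 CPM. VPS45, the SM-family protein that acts with STX16, stood at 21.1, 24.6 and 20.4 CPM, above control with siRNA 1 where STX16 was below. VPS72, a chromatin protein taken in by its name, stood at 126, 112 and 111 CPM.

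Genes that work with these members were taken from lists by pathway. At 1.5-fold, 0 of them were higher than control, where 2.81% (siRNA 1) and 1.24% (siRNA 2) of all genes were. With siRNA 1, where 2.56% of all genes were lower, 1 of 28 compared Golgi tethers was lower (GCC1, a trans-Golgi golgin, at 16.2, 9.76 and 13.8 CPM). Of 21 genes of the WASH and commander complexes, which work with retromer, 2 were lower: FAM21C, a WASH subunit, at 147, 90.4 and 104 CPM, and COMMD6 at 297, 186 and 327 CPM. Of 12 exocyst activators 1 was lower, the GTPase RHOQ at 32.5, 18.7 and 25.2 CPM. With siRNA 2, where 1.85% of all genes were lower, USE1 (13.9, 10.3 and 8.12 CPM), 1 of 16 SNARE regulators and other SNAREs, and 1 IST1 entry (33.1, 26.2 and 20.2 CPM, identical to another entry), of 23 entries of other ESCRT genes, were lower. None of the 13 HOPS and endosome maturation partners passed. Median log2 ratios over these lists lay between -0.26 and -0.05 with siRNA 1 and between -0.13 and -0.05 with siRNA 2.

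Promoters of 82 of the 99 member symbols were found in the RefSeq table and searched on both strands. The E-box CACGTG was in 13 of 82 members (15.9%), against 8.77% of all 27305 genes with a window. The CLEAR core TCACGTGA, the longer motif read by TFEB on lysosomal genes, which contains the E-box, was in 4 (4.88%, against 1.18%): GOSR2, STX4, STX6 and VPS11, as in the capitals of the VPS11 window above. The antioxidant response element core TGACNNNGC was in 20 (24.4%, against 16.1%), among them SNX24 and VPS29, which stood on opposite sides of control. The cAMP response element TGACGTCA was in 3 (3.66%, against 2.25%) and the amino acid response element core TGATGNAA in 1, SNX10 (1.22%, against 4.46%). The VAMP7 window held no match. The comparison set holds genes of every type in the table, and a match describes letters in a window only.

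An siRNA can also act on other RNAs through its seed, so seed matches in 3′ UTRs were counted. These were compared genes with a canonical 3′ UTR, and VAMP7 and repeated entries were left out of the members only. Of the 88 members, 15 (17.0%) held the site GATGGAA of siRNA 1, against 14.7% of 9603 genes. The site TTGCAGA of siRNA 2 was in 14 (15.9%), against 16.1%. Members with the siRNA 1 site had a median log2 ratio of -0.15 with siRNA 1 and those without it -0.10, and their 3′ UTRs were longer (median 5089 against 1709 bases). Over all genes these medians were -0.07 and -0.02. For siRNA 2 both medians were -0.09 over members and -0.05 over all genes. Of the 9 members lower by at least 0.32 on the log2 scale with siRNA 1, 2 held its site, against 13 of the 79 others, and for siRNA 2 the counts were 3 of 9 and 11 of 79. Over all genes, the site of siRNA 1 was in 19.7% of those lower by that much and in 14% of the others, and the site of siRNA 2 in 18.7% and 15.8%. For the lower members that held the site, the first one is shown with its flanks, the seed match in capitals.
SNX24, siRNA 1: aatgtgaaGATGGAActaaactg
SNX30, siRNA 1: tatttacaGATGGAAgtctttgt
GOSR1, siRNA 2: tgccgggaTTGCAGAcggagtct
SNX4, siRNA 2: tgctagctTTGCAGAatcttaaa
VPS36, siRNA 2: atttagttTTGCAGAgaataaaa
SNX24 stood below control in both knockdown libraries and SNX30 in that of siRNA 1 alone. GOSR1 holds 2 sites of siRNA 2 and also 1 of siRNA 1. It was lower mainly with siRNA 2 (log2 ratio -0.41, against -0.09 with siRNA 1), whereas SNX4 and VPS36 were lower with each siRNA. The part of seed matches in these levels was not tested.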

How the data were processed

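CAGE libraries of EBC-1 cells had been made from total RNA, 1 per siRNA. The authors deposited CPM (tags scaled to a common library size) per gene. BWA, HISAT2 and hg19 are named per the submitters' processing notes, but without roles or versions. The annotation used and the treatment of tags with more than 1 match are not stated in the sources read here. Deposited CPM values were whole multiples of 1 tag within 0.005 CPM for at least 99.99% of values in each library. The same total, 24999950, came out for each library, and how equal totals arose is not given, nor whether tags are independent molecules.

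Log2 ratios are of (CPM + 1) for genes averaging 5 CPM (125 tags) or more, counted past log2 differences of 0.32, 0.58 (1.5-fold) and 1 (2-fold). With 1 library per group no test of the conditions exists. Tags were compared with an exact two-sided binomial test (scipy 1.17.1, Benjamini-Hochberg adjusted p under 0.05). The test was tried on simulated tags with counting error alone, which cannot show how it behaves with spread between cultures. Ratios with intervals are of CPM alone, and their intervals are exact binomial. Alternatives were other pseudocounts, minimum means, TMM factors (edgeR 4.0.16), median ratio factors, the lower fold, the binomial test, and identical entries left out of role groups; leaving repeated entries or VAMP7 out of the members' counts and medians was added after the data were seen. Of the 100 entries, 8 have values identical to another entry (VAMP2, STX12, STX16 and its readthrough, SNX27, VPS33A and GOSR2 under 2 identifiers), and these cannot be told apart. Start copies were sought with minimap2 2.31 on GRCh37, and 14 of 100 members had at least 1. This search could not find the Y copy of VAMP7, which is masked in that genome. Gene coordinates are from GENCODE on GRCh37. Counting intervals were given for members past 1.5-fold, the 5 highest and 5 lowest ratios of each comparison and the 10 highest control levels; intervals of others were added after their values were seen. The members and lists were chosen with earlier results of these data known, and the promoters and seed sites shown were chosen after values were seen.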

Additional observations from a re-analysis of the deposited data

How the results depend on the processing

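No paired analysis was possible because each group has 1 library, and no library could be left out. With siRNA 1 against control, the 1 member at least 1.5-fold lower (SNX24) became 0 with a pseudocount of 5 CPM or with TMM factors, 10 at a log2 limit of 0.32 and 40 by the exact binomial test, and the 0 higher became 1 and 8. The members' median was -0.0739 with TMM and -0.0762 with median ratio factors. With siRNA 2 against control, the 0 members lower became 1 (VPS37D) with a minimum mean of 1 CPM or no filter, 9 at 0.32 and 29 by the binomial test. The 1 higher became 7 by the binomial test, and this 1 and the 1 that was 2-fold apart both became 0 with a minimum mean of 20 CPM or without VAMP7. The median was -0.0462 with TMM and -0.0448 with median ratio factors. Between the siRNAs, the 1 lower and the 1 that was 2-fold apart became 0 with a minimum mean of 20 CPM or without VAMP7. The binomial test called 16 lower and 14 higher, 4 were lower at 0.32, and the median was -0.0307 with median ratio factors. Among named members, 4 of the values moved, all of VAMP7, whose log2 ratio of siRNA 2 to control was 5.99 and 3.10 with pseudocounts of 0.5 and 5 CPM. Of the role group medians, 15 values moved and 321 did not; that of the VAMPs with siRNA 2 was 0.0665 with a minimum mean of 20 CPM. Depth limits members near 5 CPM, such as SNX33 and VPS16, whose intervals for siRNA 1 run from 0.819 to 1.33 and from 0.759 to 1.24.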
